A study of Caenorhabditis elegans with 6 samples.

Results

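Small heat shock genes of Caenorhabditis elegans were examined in nematodes exposed to chlorpyrifos (CPF) and diazinon (DZN), organophosphate pesticides that were given together. A list of 10 genes was followed: hsp-16.1, hsp-16.2, hsp-16.41, hsp-16.48 and hsp-16.49, and outside the hsp-16 set hsp-12.3, hsp-12.6, hsp-25, hsp-43 and sip-1. Each was looked for on the arrays by its sequence name, and 7 of the 10 had a probe, 1 probe each, among 18999 features of which 17887 were named genes. Of the 5 hsp-16 genes in this list only hsp-16.2 (Y46H3A.3) and hsp-16.41 (Y46H3A.2) had a probe. No probe carried the sequence names of hsp-16.1 (T27E4.8), hsp-16.48 (T27E4.3) and hsp-16.49 (T27E4.9), and these 3 genes were not analysed here. The probes of the other 5 were named F38E11.1 (hsp-12.3), F38E11.2 (hsp-12.6), C09B8.6 (hsp-25), C14F11.5 (hsp-43) and F43D9.4 (sip-1).

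Nematodes of the wild-type strain N2 were grown from eggs at 24 °C on agar with Escherichia coli OP50. The exposed group had 0.5 mg/L CPF and 1 mg/L DZN in the agar (CPF+DZN), and the control group had the carrier acetone, which the exposed dishes held too. RNA of both groups was hybridised together on 6 arrays of 2 colours. On 3 of them the exposed RNA carried Cy5 and the control RNA Cy3 (mixture in Cy5), and on the other 3 the dyes were exchanged (mixture in Cy3). The labels give an age of 72 h and the stage as L3/L4, whereas fewer hours and late L3 are stated in the study's methods. The true age and stage at harvest are not known. Yolk genes, listed here as markers of the adult intestine, had mean control levels from 12.99 (vit-1) to 15.11 (vit-3) as normalized log2 intensity. A difference in stage between the exposed and control nematodes was not tested. Each sample was RNA of whole nematodes from several dishes, so that fewer cells of a type and less RNA per cell cannot be told apart.

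Small heat shock proteins share the alpha-crystallin domain. They assemble into oligomers and hold unfolded proteins in a soluble state until chaperones that use ATP refold them. The hsp-16 genes are nearly silent in unstressed nematodes and are switched on by heat and other stress through the heat shock factor HSF-1, and hsp-16.2 reporters are a standard stress sensor in this species. The FOXO factor DAF-16, which acts downstream of insulin signalling, takes part in the control of several members, hsp-12.6 and sip-1 among them. Other members are made in particular tissues or stages without stress.

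In the mixture channel 44.1 to 54.9% of an array's C. elegans spots were well above background, and in the control channel 47.9 to 58.1% were. A spot counted as well above background where its median signal exceeded the local background by more than 2 background SDs. Ratios of mixture in Cy5 replicate 3 were least like those of the other arrays (mean r 0.276 across genes, against 0.464 to 0.526 for each of the other 5). The arrays fell into 2 slide series, with mixture in Cy5 replicates 1 and 2 in the earlier and the other 4 in the later. The scan headers give a single mixture extract number to replicate 2 of the first orientation and replicate 1 of the second, so the 6 arrays may hold 5 mixture extracts. With these 2 arrays averaged, 1843 features were called in place of 2636, and 4 of the 7 measured small heat shock genes. Among genes that mark cell types, 18 of 20 oocyte markers, 6 of 6 yolk genes and 6 of 11 measured sperm markers fell. A marker counted as risen or fallen at an adjusted p under 0.05 (limma), which 6.74% of all features passed as higher and 7.13% as lower. In body wall muscle 2 of 10 markers rose, in intestine 3 of 8, in pharyngeal muscle 0 of 4 (log2 ratios of 0.19 to 0.65), and in hypodermis 2 of 6 rose while col-19 fell.

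CPF+DZN was followed by higher transcript levels of hsp-16.2, hsp-16.41 and hsp-43, and by a lower level of hsp-12.3. The log2 ratio of mixture over control was 1.53 ± 0.52 (SD, n = 6) for hsp-16.2, 1.01 ± 0.29 for hsp-16.41, 0.69 ± 0.25 for hsp-43 and -0.52 ± 0.18 for hsp-12.3. The other 3 genes did not pass the test: sip-1 had -0.37 ± 0.40, hsp-12.6 had -0.22 ± 0.27 and hsp-25 had 0.09 ± 0.09. Thus 4 of the 7 measured genes were called, 3 higher and 1 lower, at an adjusted p of 0.05 in a limma model of all features (Benjamini-Hochberg, two-sided). Over all features the share called was 13.9% (6.74% higher and 7.13% lower). The median ratio of the 7 genes was 0.09, and that of all features 0.00013. With plain background subtraction hsp-16.41 was the 1 gene of the 7 still called (adjusted p = 0.0481). An ordinary linear model gene by gene called 0 of 7 after Benjamini-Hochberg adjustment, with 4 at an unadjusted p under 0.05.

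**Figure D1:**
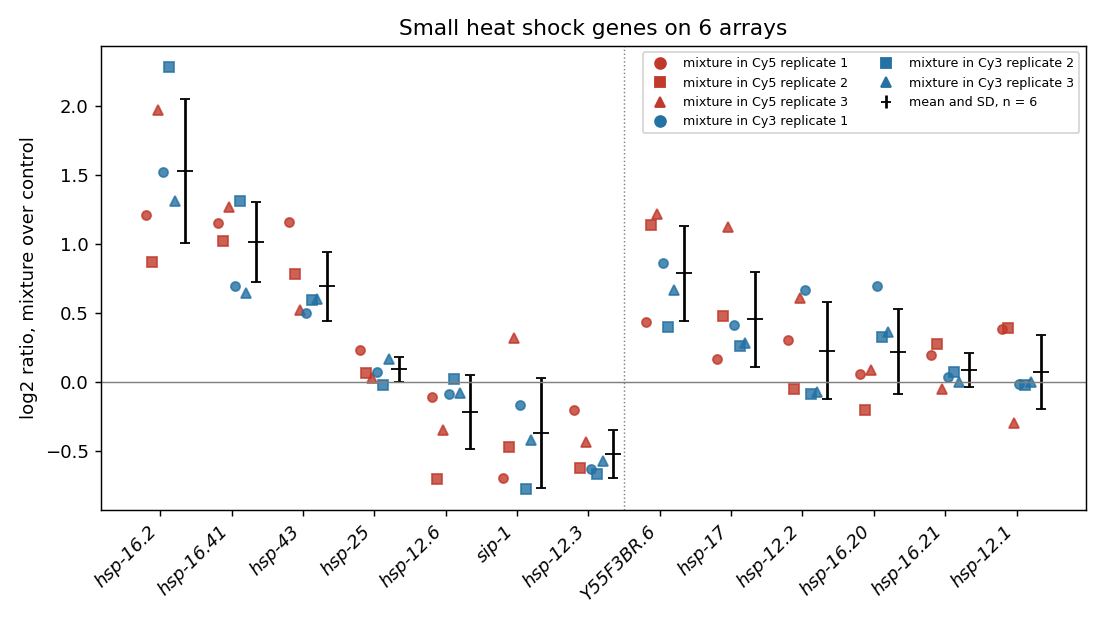
Log2 ratio of mixture over control (vertical axis) of each small heat shock gene on each of the 6 arrays, with the mean and SD beside the points; genes left of the dotted line are the listed ones and genes right of it are further small heat shock and alpha-crystallin genes. Among the listed genes hsp-16.2, hsp-16.41 and hsp-43 are above 0 on all 6 arrays, hsp-12.3 is below 0 on all 6, and sip-1 is above 0 on mixture in Cy5 replicate 3 alone.

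hsp-16.2, the inducible gene most used as a heat shock reporter, had the largest ratio of the measured members. With the arrays taken by replicate number, first those with the mixture in Cy5 and then those with it in Cy3, its normalized log2 intensity was 11.37, 11.17, 10.11, 9.94, 10.31 and 10.50 in the mixture channel. In the control channel it was 10.16, 10.29, 8.14, 8.42, 8.03 and 9.19. The mixture was the brighter channel on all 6 arrays, while the ranges of the 2 channels over arrays overlapped, since the control signal on the 2 earlier slides was above the mixture signal on 2 of the later ones. The log2 ratios were 1.21, 0.87, 1.97, 1.52, 2.28 and 1.31, highest on mixture in Cy3 replicate 2 and lowest on mixture in Cy5 replicate 2. The mean of 1.53 (95% interval 1.13 to 1.93) is a 2.88-fold higher level (adjusted p = 0.00319), which placed hsp-16.2 at rank 59 from the top among 18999 features by ratio. On the 4 later slides alone the ratio was 1.84 (adjusted p = 0.00356).

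hsp-16.41 encodes a protein of the other hsp-16 subclass. Its mixture signal was 13.37, 13.21, 11.70, 11.73, 11.85 and 12.103 in the same order of arrays. Its control signal was 12.22, 12.19, 10.44, 11.04, 10.54 and 11.46. Again the mixture was brighter on all 6 arrays and the ranges over arrays overlapped, with both channels brightest on the 2 earlier slides. The log2 ratios lay closer together than those of hsp-16.2, at 1.15, 1.02, 1.27, 0.69, 1.31 and 0.64, for a 2.02-fold higher level (95% interval of the log2 ratio 0.77 to 1.26, adjusted p = 0.00228). It stood at rank 163 from the top. Both probes were well above background in both channels of every array, so that a signal was measured in the control nematodes too. The mean control level was 9.04 for hsp-16.2 and 11.31 for hsp-16.41, so neither probe was near silent in the controls. By mean brightness of both channels they stood at percentiles 84.1 and 95.6 of all features.

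**Figure D2:**
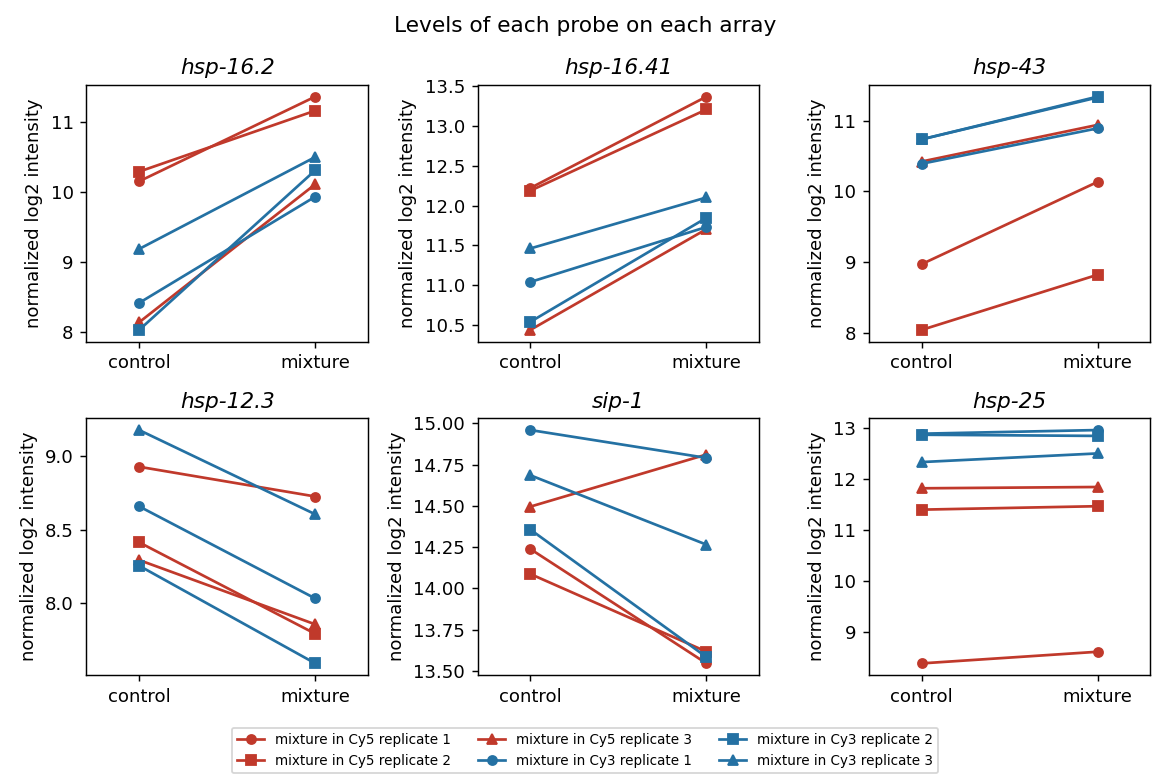
Normalized log2 intensity (vertical axis, a separate scale for each gene) in the control and the mixture channel of 6 small heat shock genes, with a line for each array. The lines of hsp-16.2, hsp-16.41 and hsp-43 all rise and those of hsp-12.3 all fall, the sip-1 line of mixture in Cy5 replicate 3 rises while the other 5 fall, and hsp-25 lies far lower on mixture in Cy5 replicate 1 in both channels.

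The ratio of hsp-16.2 exceeded that of hsp-16.41 on 5 of 6 arrays, by 0.51 ± 0.45 on the log2 scale over the 6, and the difference was -0.15 on mixture in Cy5 replicate 2. These 2 genes are neighbours in the genome and are known to be transcribed away from each other from a shared control region. Over the 6 arrays their ratios had an r of 0.497 and a rho of 0.543, as a description, and 1029 of 6774 features well above background on every array were at least as like hsp-16.41. None of the 7 measured genes among the 4 on either side was called, where 13.9% of all features were, so that few calls would be looked for among so few genes. These neighbours were looked at after the values were known. The nearest, the chemoreceptor genes srt-41 and srt-42, had ratios of 0.01 each, with no array well above background. F36H9.1 and Y46H3A.5 were also well above background on no array, so a difference in any of these was not detectable. Farther out, F36H9.2 had 0.33 (adjusted p = 0.0523), Y46H3A.4 had 0.46 (0.0961) and gly-7 had 0.04 (0.862). The hsp-16 genes form a family of close copies, and the share of signal that transcripts of the hsp-16 genes without a probe gave to these 2 probes was not tested.

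hsp-43, an unusually large member of the family, rose on all 6 arrays. Its mixture signal was 10.13, 8.82, 10.94, 10.89, 11.33 and 11.34, and its control signal was 8.97, 8.05, 10.42, 10.39, 10.73 and 10.73. The 2 earlier slides were the dimmest in both channels, the opposite of the hsp-16 probes, and the ranges of the channels overlapped. The log2 ratios were 1.16, 0.78, 0.52, 0.50, 0.59 and 0.60, with the 2 highest on those dim slides, for a 1.62-fold higher level (95% interval of the log2 ratio 0.47 to 0.91, adjusted p = 0.00672). On the 4 later slides alone the ratio was 0.54 (adjusted p = 0.0350), and where loess was replaced by median centring it was 0.39 (0.0181).

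hsp-25 is known from the attachment structures of body wall muscle. Its mixture signal was 8.61, 11.47, 11.84, 12.96, 12.84 and 12.50, and its control signal was 8.38, 11.40, 11.82, 12.89, 12.87 and 12.33. Although the signal differed widely between arrays, the channels of each array lay close together, with log2 ratios of 0.23, 0.07, 0.03, 0.07, -0.02 and 0.17. The 95% interval of its mean, -0.08 to 0.26 (adjusted p = 0.496), left out a 2-fold change in either direction. Where loess was replaced by median centring its ratio was -0.19 (adjusted p = 0.155). Of the body wall muscle markers myo-3 (0.85 ± 0.10) and unc-87 (0.38 ± 0.19) rose, the median of the 10 was 0.21, and their summed normalized intensity was 133285 to 196126 in the mixture and 111379 to 148139 in the control. The part of muscle RNA in the hsp-43 and hsp-25 values was not tested.

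The hsp-12 genes encode the shortest proteins of the family. hsp-12.3, whose product did not act as a chaperone in test-tube assays, fell on all 6 arrays. Its mixture signal was 8.73, 7.79, 7.85, 8.03, 7.59 and 8.604, and its control signal was 8.93, 8.41, 8.29, 8.66, 8.25 and 9.18. The probe was dim but well above background in both channels of every array, and the ranges overlapped. The log2 ratios were -0.20, -0.62, -0.44, -0.63, -0.67 and -0.57, for a 1.44-fold lower level (95% interval of the log2 ratio -0.71 to -0.34, adjusted p = 0.00985). The ratio was -0.30 in the deposited table of log2 ratios (adjusted p = 0.0220) and -0.41 on the 3 arrays of a shared scan day (0.0638), and over all alternatives the adjusted p ranged from 0.00350 to 0.0838.

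hsp-12.6, a target of DAF-16 in long-lived insulin-signalling mutants, lies next to hsp-12.3. Its probe was well above background in 0 of 6 mixture samples and 1 of 6 control samples. The log2 ratios ran from -0.71 to 0.02 (adjusted p = 0.165) with a mean of -0.22 that became -1.18 under plain background subtraction, and no fold is given because both groups lay at the background. A difference in hsp-12.6 was therefore not detectable at this signal. None of the 8 measured neighbours of the hsp-12 pair was called, where 13.9% of all features were. Of these neighbours srxa-2, cutl-17 and F38E11.6 were well above background on no array, and F59B8.1 in 1 control sample alone. The isocitrate dehydrogenase gene idh-1 had a ratio of 0.24 (adjusted p = 0.0877), and cpin-1 and copb-2 had 0.12 and -0.05.

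sip-1 encodes a small heat shock protein of oocytes and embryos that acts at acidic pH. Its mixture signal was 13.54, 13.62, 14.81, 14.79, 13.58 and 14.26. Its control signal was 14.24, 14.09, 14.50, 14.96, 14.36 and 14.69. The mixture was the dimmer channel on 5 of 6 arrays, with log2 ratios of -0.69, -0.47, 0.32, -0.17, -0.77 and -0.42, and the ranges overlapped. The mean of -0.37 (95% interval -0.70 to -0.04) did not pass the adjusted test (adjusted p = 0.135). This call depended on the arrays and the model used. Without mixture in Cy5 replicate 3 the ratio was -0.52 (adjusted p = 0.00999). It was -0.65 on the shared scan day (0.0156) and -0.07 on the 4 later slides alone (0.879), and with the slide series as a block the adjusted p was 0.0274.

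Oocyte markers moved in the same direction. Of the 20 markers 18 fell and 0 rose, with a median of -1.33. Among them were the yolk receptor gene rme-2 (-1.81 ± 0.87) and the maturation factors oma-1 (-1.03 ± 0.67) and oma-2 (-1.33 ± 0.77), while mei-1 had -0.42 ± 0.46 (adjusted p = 0.133). The eggshell chitin synthase gene chs-1 was on no array well above background. Their summed normalized intensity was 13004 to 59154 in the mixture and 57750 to 88606 in the control. On the 6 arrays the oocyte median was -1.86, -2.21, -0.22, -0.69, -1.19 and -1.50, nearest to 0 on mixture in Cy5 replicate 3, where sip-1 was above 0, and next on mixture in Cy3 replicate 1, where the sip-1 ratio was nearest to 0. This order was not particular to the oocyte markers. The median of the yolk genes was nearest to 0 on the same arrays (-0.37 and then -1.12). That of the sperm markers was nearest to 0 on mixture in Cy5 replicate 3 (-0.08) and next on mixture in Cy3 replicate 2 (-0.41). The sip-1 ratios spanned a narrower range than the oocyte medians, and the part of oocyte RNA in the sip-1 result was not tested.

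**Figure D3:**
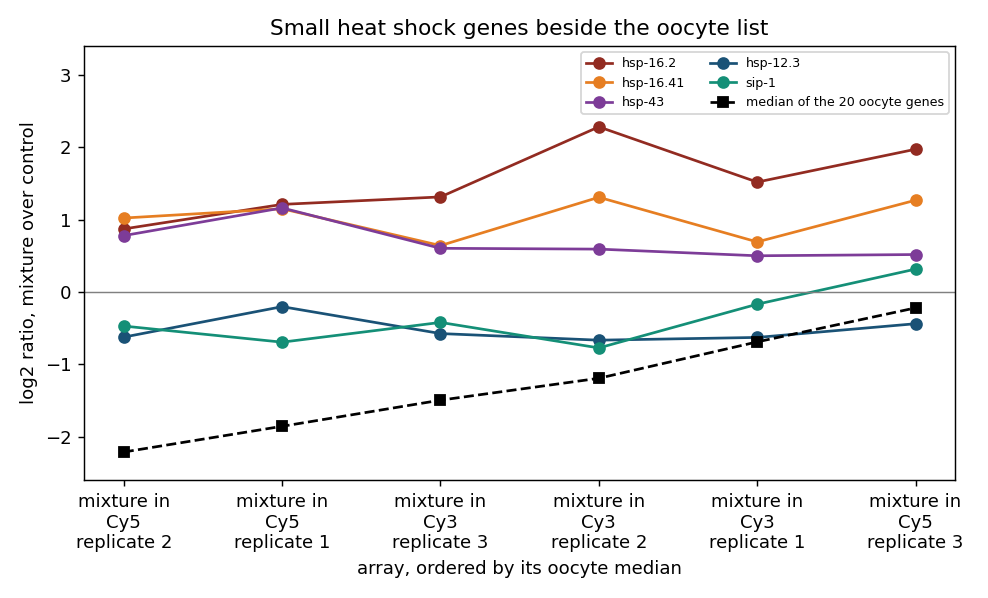
Log2 ratio of mixture over control (vertical axis) of 5 small heat shock genes and the median of the 20 oocyte genes (black squares) on each array, with the arrays ordered by that median. Across the oocyte medians from -2.21 to -0.22 the hsp-16 genes and hsp-43 stay above 0 and hsp-12.3 stays below 0, and sip-1 has -0.47, -0.69, -0.42, -0.77, -0.17 and 0.32 from left to right, with no steady course.

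The hsp-16 genes were set against the other 5 measured members on each array. The median ratio of the hsp-16 pair was 1.18, 0.95, 1.62, 1.11, 1.80 and 0.98, and that of the other 5 genes was -0.11, -0.47, 0.03, -0.09, -0.02 and -0.08. The lowest hsp-16 median was thus above the highest of the others. Their difference was 1.39 ± 0.28 (range 1.05 to 1.82, n = 6), given with no test since the genes were listed with results of these data known. Against sip-1 alone, hsp-16.41 was higher by 1.38 ± 0.50 and hsp-16.2 by 1.90 ± 0.60, above 0 on 6 of 6 arrays in both cases. hsp-43 was the exception among the others, with a ratio nearer to that of hsp-16.41 than to those of sip-1 and the hsp-12 genes. On mixture in Cy5 replicate 1 hsp-43 (1.16) was above hsp-16.41 (1.15), so the separation holds for the medians and not for every gene. No member's ratio differed between dye orientations past the test (adjusted p of the dye term from 0.725 to 0.976, with 0.0211% of all features called).

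The genes whose 6 ratios most resembled those of hsp-16.41, among 6774 features well above background in both groups on all arrays, were sft-1 (r = 0.988), ncbp-1, sac-2, T06E6.10 and F13G3.10 (r = 0.977). Those most like sip-1 were brd-1 (r = 0.997), imb-2, F11A10.5, iars-2 and capg-2 (r = 0.964). The likeness is of the pattern over arrays and not of the size. The 5 genes like hsp-16.41 had mean ratios between -0.22 and 0.16, and those like sip-1 between -0.40 and -0.12, and none of the 10 was called.

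Further small heat shock and alpha-crystallin genes were taken from a list of 8, of which 6 had a probe. Of these 2 rose and 0 fell (6.74% and 7.13% over all features), with a median ratio of 0.22. Y55F3BR.6, an alpha-crystallin domain gene, had log2 ratios of 0.44, 1.14, 1.22, 0.86, 0.40 and 0.67 (mean 0.79 ± 0.35, adjusted p = 0.00998). hsp-17 had 0.16, 0.48, 1.12, 0.41, 0.26 and 0.28 (mean 0.45 ± 0.35, adjusted p = 0.0479), and its probe was not well above background on mixture in Cy5 replicate 1. Both were above 0 on all 6 arrays. hsp-12.2 had 0.23 ± 0.35 (adjusted p = 0.316) and hsp-12.1 had 0.07 ± 0.27 (0.734). For hsp-16.20 and hsp-16.21 neither group was well above background on any of the arrays, and hsp-16.11 had no probe. The comparison of hsp-16 genes with the other members therefore rests on hsp-16.2 and hsp-16.41 alone.

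The larger chaperones refold proteins with ATP or assist those that do. Of 18 listed genes 16 were measured, of which 2 rose and 0 fell, with a median ratio of -0.07. Over all features 6.74% were called higher and 7.13% lower, so a count of this size is no result about the list. unc-23, a co-chaperone gene of the BAG type needed for muscle attachment, rose with 0.74 ± 0.24 (adjusted p = 0.00672). hsp-3, an Hsp70 of the endoplasmic reticulum, rose with 0.41 ± 0.25 (0.0116). The other 14 were not called. The heat-inducible cytosolic Hsp70 gene hsp-70 had 0.29 ± 0.20 (0.0735), with 2 mixture and 3 control samples well above background, and the ubiquitin ligase gene chn-1 had -0.24 ± 0.21 (0.105). Of the main cytosolic chaperones, hsp-1, the constitutive Hsp70, had -0.12 ± 0.23 (0.324) and hsp-90 had 0.04 ± 0.25 (0.862).

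Of the regulators of the response single genes are given, with no count or median over the list, since 1 of its 15 members is not reported here. The heat shock factor gene hsf-1 had -0.23 ± 0.44 (adjusted p = 0.372), above 0 on 3 arrays and below 0 on 3. daf-16 had 0.18 ± 0.09 (0.153), above 0 on 6 arrays. The kinase gene akt-2 had 0.52 ± 0.47 (0.0811), pqm-1, a zinc finger factor that opposes DAF-16, had 0.52 ± 0.56 (0.0988), and ddl-1, whose product helps to hold HSF-1 inactive, had -0.21 ± 0.16 (0.124). These 5 genes did not pass the test, and they do not stand for the whole list.

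Among 11 measured of 12 listed target genes of DAF-16, 5 rose and 0 fell (6.74% and 7.13% over all features), with a median ratio of 0.42. Those that rose were the lysozyme gene lys-7 (1.35 ± 0.27, adjusted p = 0.000696), the catalase genes ctl-1 (0.70 ± 0.13, 0.00252) and ctl-2 (0.76 ± 0.43, 0.00740), dod-3 (1.24 ± 0.87, 0.0104) and the metallothionein gene mtl-1 (1.24 ± 1.18, 0.0318). The spread of mtl-1 was the widest of these, from -0.57 to 3.00 over the arrays, with the control well above background on 4. With the mixture in Cy5 and in Cy3 the means were 0.63 and 1.85 for dod-3, 0.51 and 1.97 for mtl-1, and 0.44 and 1.07 for ctl-2. They were 1.45 and 1.24 for lys-7 and 0.64 and 0.76 for ctl-1. None of these differences passed the adjusted test (limma, adjusted p of the dye term from 0.554 to 0.890). Not all targets with a clear signal rose. Well above background in both channels of all 6 arrays but not called were icl-1 (0.42 ± 0.59, adjusted p = 0.140), gpd-2 (0.17 ± 0.15, 0.199) and mtl-2 (0.04 ± 0.40, 0.905). The superoxide dismutase gene sod-3 had -0.05 ± 0.37 (0.880) with no mixture sample well above background. For scl-1 and sod-5 neither group was well above background on any array.

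**Figure D4:**
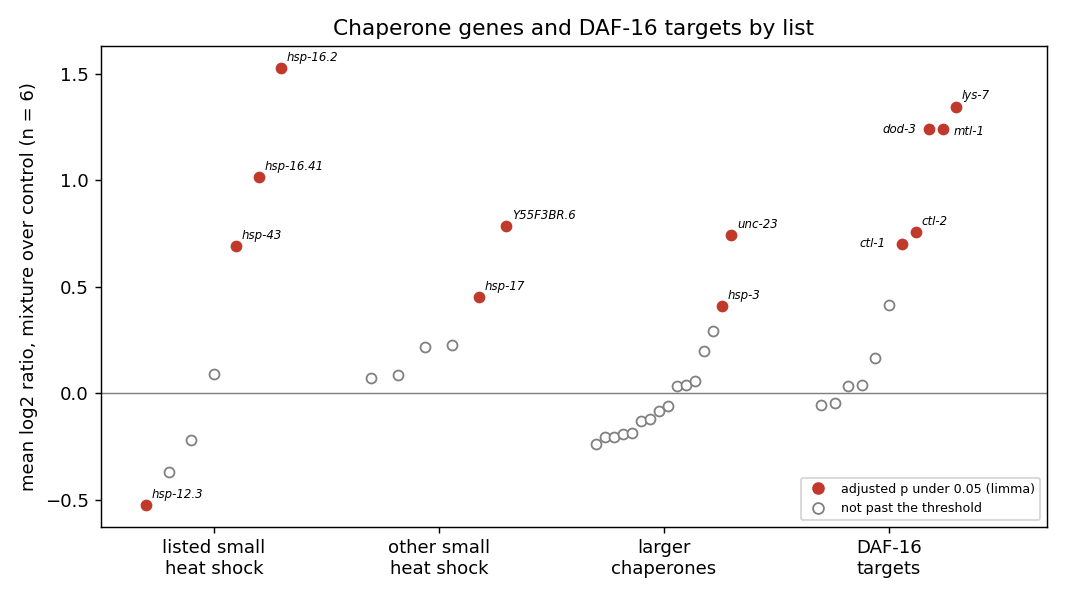
Mean log2 ratio of mixture over control (vertical axis, n = 6 arrays) of every measured gene in 4 lists (listed and other small heat shock genes, larger chaperones, and target genes of DAF-16), ordered by ratio within each list, with filled points for an adjusted p under 0.05. hsp-16.2 at 1.53 is the highest point of the lists shown, 5 DAF-16 target genes are filled between 0.70 and 1.35, and hsp-12.3 at -0.52 is the lowest point of these 4 lists.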

How the data were processed

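Deposited scanner files gave, per the file headers, spot intensity (foreground and background) and the percent of saturated pixels in each channel, without normalization; the listed genes' spots had none saturated. The authors' deposited table held log2 ratios. Set against the scanner values they were mixture over control on all 6 arrays, on a smaller scale (slopes on Cy5 over Cy3 of 0.568 to 0.620 with the mixture in Cy5, and -0.606 to -0.691 with it in Cy3), with medians from -0.0045 to -0.00010 and 5.24 to 21.2% missing. It lacked hsp-16.2 and hsp-43 on the arrays with the mixture in Cy5. The submitters' processing notes name limma 3.2.3 and the study's methods name loess and Aquantile; the background correction and the meaning of the spot flags are not given in the sources used here.

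Of 23232 spots per array 742 were control or empty. Foreground medians were corrected with normexp (offset 50), normalized by loess within arrays (control spots at weight 0) and by Aquantile between arrays (limma 3.58.1, R 4.3.3). The 6 log2 ratios of each feature were fitted with lmFit and eBayes, with terms for mixture and dye, with Benjamini-Hochberg adjustment over 18999 features and a threshold of 0.05. The brightest probe stood for a gene. Errors are SDs over arrays and intervals are at 95%. The p-values reflect only differences between the 6 arrays, whose number limits the precision. For limma p-values and intervals each gene's variance was drawn towards that of all features, which the ordinary linear model did not do. On simulated arrays the fit recovered 72 of 100 2-fold and 96 of 100 4-fold changes, with 7 false calls among 18999 features. The simulated noise was independent between features, so differences that many genes share on an array were not simulated. Alternatives changed the background correction, normalization, flags, dim features, dye term, blocks, batches and test, or left out an array.

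The genes and lists were chosen with earlier results of these data known. Named from each list were up to 4 genes with the smallest p, and 5 by likeness (Pearson r over 6 arrays) to the brightest hsp-16 probe and to the brightest other member; genes beyond these were named for their role after their values were seen. The result of 1 listed regulator is not reported here, so no count is given for that list and the rule for naming was applied to the rest of it. RefSeq (WBcel235) gave names and neighbours only. No coordinates are given because no build is named for the files, and sequences were not analysed here.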

Additional observations from a re-analysis of the deposited data

Results flagged for a closer look

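Chance alone sets a value of 1 in about 20 groups of 6 this far from the rest. The hsp-25 probe stood apart on mixture in Cy5 replicate 1 in both channels, with a log2 level of 8.61 in the mixture and 8.38 in the control against 11.40 to 12.96 on the other 5 arrays, while its log2 ratio there (0.23) was close to those of the other arrays. The log2 ratio of hsp-17 was 1.12 on mixture in Cy5 replicate 3 and 0.16 to 0.48 on the other 5. The control level of hsp-16.20, below the background threshold throughout, was 6.56 on mixture in Cy5 replicate 2 and 6.04 to 6.20 elsewhere.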

How the results depend on the processing

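The number of features called, 2636, became 178 with plain background subtraction, 4118 with median centring in place of loess (679 higher and 3439 lower), 1 of 7044 tested with only spots of flag 1 (397 at an unadjusted p under 0.05), 4308 with the slide series as a block, 891 within the later slide series, 109 in the ordinary linear model with Benjamini-Hochberg adjustment, and 1496 there at an unadjusted p under 0.01. Leaving out 1 array gave 535 (without mixture in Cy3 replicate 3) to 4609 (without mixture in Cy5 replicate 3). With the replicate block it was 950, but deviations of same-numbered arrays correlated at -0.107, -0.0065 and -0.233, so the numbers were not taken as pairs. Of the 7 small heat shock genes limma called 4 with the block, 4 or 5 with 1 array left out, 1 with background subtraction and 0 of the 1 testable with flag 1 (1 at an unadjusted p under 0.05). The ordinary linear model called 0 (4 at an unadjusted p under 0.05).

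Over 23 alternatives hsp-16.41 stayed between 0.77 and 1.07 and lost its call in 1, hsp-16.2 stayed between 1.22 and 1.84 and lost it in 2, hsp-43 lost it in 2 and hsp-12.3 in 4, of which flag 3 spots, chosen after seeing the data, left it too few arrays for a test. sip-1 was called in 3. Several of the alternatives could not move a gene's ratio. These were the fit without the dye term, the blocks, the mean of a gene's probes (1 probe each here) and the ordinary linear model. That model at an unadjusted p under 0.01 counted among the alternatives that kept a call. hsp-25 changed sign with median centring (-0.19, adjusted p = 0.155). The difference between hsp-16 genes and the other members stayed between 1.15 and 1.46 in every alternative that measured both. Dim signal limits hsp-12.6, hsp-16.20, hsp-16.21 and hsp-70. A search of promoters for heat shock motifs was not run.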
